A study of Mus musculus with 2 samples.

Results

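The protein genes of the cytosolic ribosome were followed across the cell classes of 1 brain and 1 lung single-cell library of Nestin-GFP+ cells. Members were all genes whose symbol started with Rpl or Rps and a digit, together with Rpsa, Rplp0, Rplp1 and Rplp2, leaving out symbols that hold -ps and the Rps6k kinases. The rule gave 89 of the 25814 genes in the count tables. The cells came from adult transgenic mice of about 6 weeks in which Nestin regulatory elements drive GFP. The labels name the strain as C57BL/6, whereas the study's methods describe CD1 and mixed CD1 and C3H stock to which transgenic lines were bred, and the number of animals is not given in the labels. Brain and lung were dissociated with trypsin, GFP+ cells were sorted by flow cytometry and RNA was captured as 3′ ends in droplets (10x Chromium v3). Both libraries thus share the transgene, the age and the sort, and differ in tissue. GFP+ cells need not be neural, and both libraries held vascular cells as well. With 1 library per tissue there was no replicate and no test, and all differences below compare cells within a library or the libraries themselves.

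The ribosome reads messenger RNA into protein and is built from a large and a small subunit, each a ribosomal RNA core covered with small proteins. Ribosomal protein genes are among the most highly transcribed genes of growing cells, and many of their messages carry a run of pyrimidines at the 5′ end, the TOP motif, through which mTOR signalling sets their translation. In the adult brain, neural stem cells (NSCs) rest in a quiescent, astrocyte-related state, and their activation is known to be accompanied by a higher content of ribosomal and translation messages before division and formation of neuroblasts.

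Of the 89 members, 43 encode large subunit proteins, 31 small subunit proteins (Rpsa among them) and 3 the stalk that binds elongation factors (Rplp0, Rplp1 and Rplp2), which makes 77 core members. Another 11 carry a symbol of a paralog or copy, and Rps19bp1, a binding partner of a small subunit protein, shares the prefix only. The annotation (GENCODE vM21, mm10) placed 87 of them, spread over 19 chromosomes. Per gene, the median was 17275 unique molecular identifiers (UMIs, each standing for 1 captured RNA molecule) in brain and 38839 in lung. Rplp1 led with 134750 UMIs over both libraries, followed by Rps14 with 134018, and Rps24 with 133976, and the 10 top members (Rpl23, Rps4x, Rps9, Rps12, Rpl32 and Rpl9 among them) held 23.1% of the member UMIs. No single gene therefore set the total. Rpl24 with 1536 UMIs and Rpl23a with 1230 were far below the other core members. Near-identical copies elsewhere in the genome may make their counts uncertain, which was not tested. Symbols with -ps, left out by the rule, made 0.874% of the UMIs of members and -ps symbols together in brain and 0.886% in lung. Fau and Gnb2l1 (an older symbol of Rack1) also give ribosomal proteins but fall outside the rule.

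The transcript start is where a TOP motif would lie, so 6 start windows of members named below are shown as examples, 3 with and 3 without a C start followed by pyrimidines. They were chosen after the sequences were seen, and the share over all members in the table follows them. Each window holds the 15 bases before the RefSeq transcript start and the first 15 bases of the transcript (GRCm38.p6, the build called mm10), 5′ to 3′ on the gene's strand, and capitals mark the longest pyrimidine run with a base within 5 of the start.
Rplp2 (chr7:141447636-141447665, plus strand): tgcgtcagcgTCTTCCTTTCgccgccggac
Rps21 (chr2:180257364-180257393, plus strand): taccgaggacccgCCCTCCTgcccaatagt
Rps27 (chr3:90213634-90213663, minus strand): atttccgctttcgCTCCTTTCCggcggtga
Rps27l (chr9:66946071-66946100, plus strand): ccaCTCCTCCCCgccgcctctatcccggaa
Rpl22l1 (chr3:28805493-28805522, plus strand): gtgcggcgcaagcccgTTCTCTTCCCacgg
Rplp0 (chr5:115559452-115559481, plus strand): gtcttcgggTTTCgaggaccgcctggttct
The first 3 start at a C followed by at least 4 pyrimidines, and the other 3 do not at the base annotated. Of the 64 members in the RefSeq start table, 13 (20.3%) had an annotated start with C and at least 4 pyrimidines after it, against 467 of 17492 protein-coding genes (2.67%). All 13 were among the 57 core members in the table, and none of the 7 others (6 paralogs or copies and Rps19bp1) was among them. Anywhere within 10 bases of the start, a C with at least 4 pyrimidines after it was found for 59.4% of the members and 34.9% of protein-coding genes. A pyrimidine run of at least 8 bases that came within 5 bases of the start was found for 24 members (37.5%) and for 11.5% of protein-coding genes. Annotated starts can miss the used start by a few bases, and these matches describe the letters only.

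The filters of the study left 4151 cells of the brain and 5608 of the lung, holding 19518081 and 31797069 UMIs, with medians of 4209 and 5585 UMIs per cell. The libraries shared 15 cell barcodes. Cells were classed by detected marker genes, none of which is a member, and 75.1% of brain and 78.3% of lung cells took a class. Apart from activated NSC-like and cycling progenitor-like cells, a class needed at least 3 markers of its list and a lead over the next list. Both of these classes needed no lead, but no list other than the glial, activated and neuroblast ones was to lead. They also needed under 5 neuroblast markers and at most 2 oligodendrocyte precursor markers. Cycling progenitor-like cells were not required to show an activation marker. Glial cells with at most 1 activation marker and no cycling signature were split into quiescent NSC-like (Gfap, Thbs4, Vnn1, Hopx) and astrocyte-like cells (Slc7a10, Cxcl14, Agt, Itih3, Grm3, Slc6a11). Activated NSC-like cells had at least 3 of 7 markers such as Egfr, Dll1, Dll3, Gsx1 and Gsx2 with at most 1 G2/M marker, and cycling classes had at least 5 G2/M markers. Neuroblast-like cells had at least 5 markers such as Dcx and Dlx5, and non-cycling ones were called early under 5 and late from 20 Meg3 UMIs per 10000. In 2 lung classes, the 10 leading genes held more markers of another list than of their own, so they are called after a gate gene. The Hhip-gated cells also led with Dcn and Col1a1, and the Lyz2-gated cells with C1qa, C1qb and C1qc.

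Across the brain classes, the members took from 2.16% to 14.3% of the UMIs. In the whole library they took 8.20% (95% interval 8.19 to 8.21%, exact binomial, covering counting error only, as for all intervals below). The share was 2.16% in 548 astrocyte-like cells (2.14 to 2.18%) and 3.33% in 115 quiescent NSC-like cells (3.27 to 3.39%). It was 14.3% in 24 activated NSC-like cells (14.1 to 14.5%) and 14% in 56 cycling progenitor-like cells (13.9 to 14.1%). The astrocyte-like class was the lowest of the 14 brain classes, and the activated and cycling progenitor-like classes were the highest pair. The order within this pair depended on the gate and on the depth of the cells, and by cell medians the activated class was lower, at 12.8% against 13.6%. The neuroblast-like classes lay between, at 9.75% in 347 cycling cells, 10.9% in 268 early cells and 9.93% in 744 late cells. A share is relative: more member RNA and less of all other RNA cannot be told apart by it. Per cell, the median number of member UMIs was 82 in quiescent NSC-like cells of 2936 UMIs, 776.5 in activated NSC-like cells of 7093 UMIs and 371 in late neuroblast-like cells of 3648.5 UMIs.

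**Figure D1:**
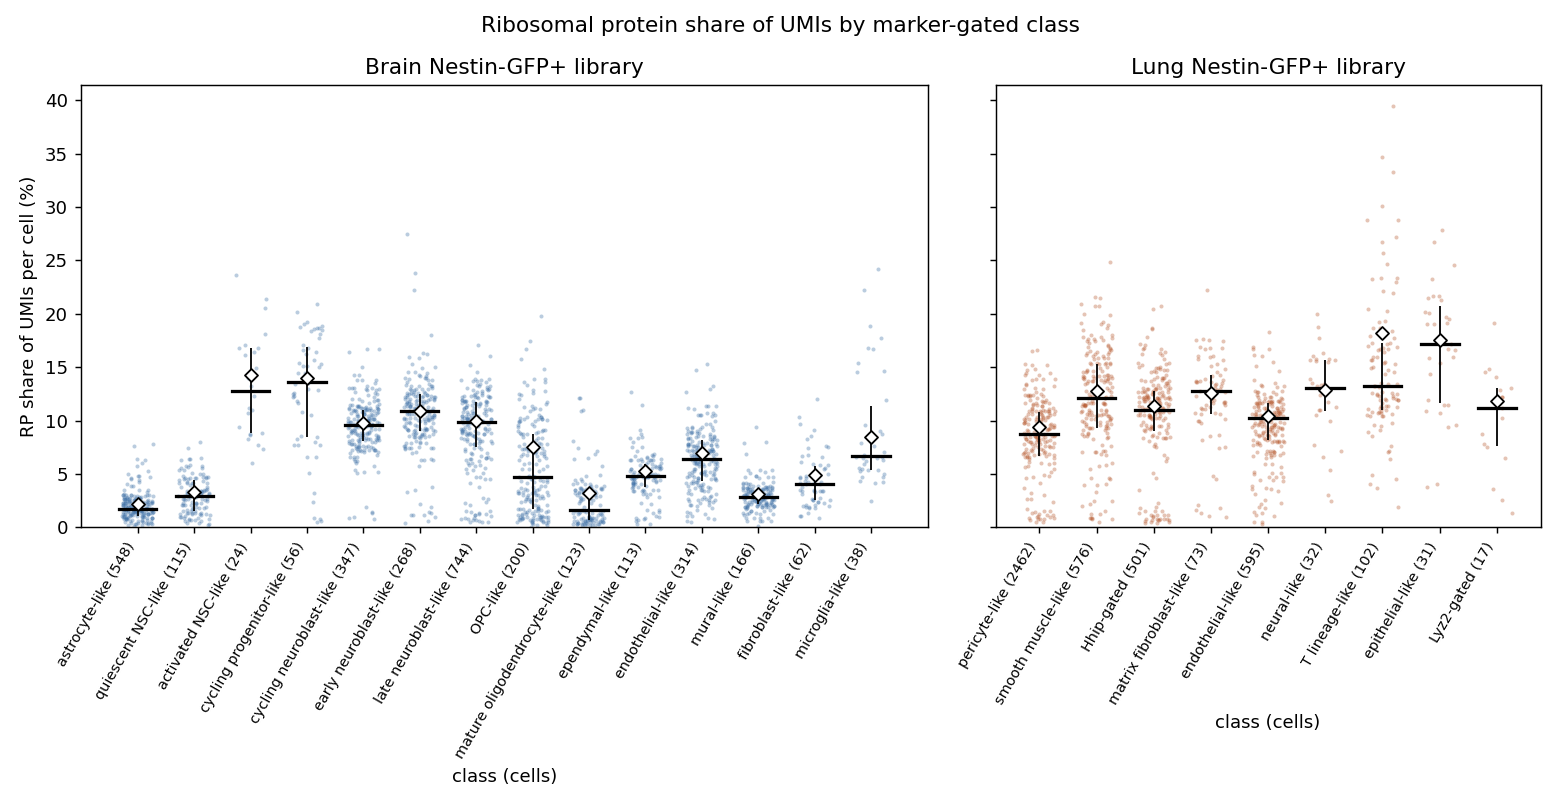
Ribosomal protein share of UMIs per cell (%, vertical axis) by marker-gated class with its number of cells (horizontal axis) in the brain and lung libraries. Points are up to 200 cells per class drawn at random, horizontal bars the medians, vertical lines the quartiles over all cells of the class and diamonds the pooled shares, which run from 2.16% in astrocyte-like to 14.3% in activated NSC-like brain cells and from 9.45% to 18.2% in the lung.

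The comparison of activated with quiescent NSC-like cells asks how the ribosomal protein messages differ between resting and activated stem cells. The pooled share was 4.29-fold higher in the activated class (4.19 to 4.39). Single cells ran from 6.02 to 23.7% in the activated and from 0.248 to 8.04% in the quiescent class. All 24 activated cells lay above the median quiescent cell, at 2.92%, and 21 of them above the highest quiescent cell, so the classes overlapped in 3 activated cells only. A median of 80 members was detected per activated cell and of 46 per quiescent cell, and the activated cells were also deeper. Gene by gene, 79 members had at least 50 UMIs in both classes together, and 79 of these were at least 1.5-fold higher, beside 34.2% of all 1817 genes entered. At least 1.5-fold lower were 0 members, beside 25.2% of all genes. The members' median ratio was 4.46, against 1.13 over all genes entered. The other 10 members, Rpl23a, Rpl24, Rps19bp1 and 7 paralogs or copies, held too few UMIs. Genes with few UMIs reach this limit mainly through the class where they are high. With 1 UMI in each class as the only limit, 80 of 84 members were at least 1.5-fold higher (background 39.9%). The 12 summed immediate early genes, which respond to dissociation, stood at 1.55 (1.36 to 1.75) in this comparison, and their part was not tested.

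Core members ranged from 2.01-fold to 7.72-fold, with quartiles of 3.71 and 5.2. Among members with at least 100 UMIs in each class, Rplp0, the stalk base, had the highest ratio, with 3512 CPM (counts per 1000000 UMIs of the class) against 483 CPM and a ratio of 7.28 (6.12 to 8.70). Rpl32, of the large subunit, followed at 6.82 and Rps2, of the small subunit near the mRNA entry, at 6.30. The lowest ratios were those of Rps21, a small subunit protein, with 1818 against 784 CPM and 2.32-fold (1.96 to 2.74), Rpl41, the shortest of the proteins, at 2.51 and Rpl21 at 2.69. The intervals of Rplp0 and Rps21 were far apart, so the members did not move by 1 common factor, although all those entered moved the same way.

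**Figure D2:**
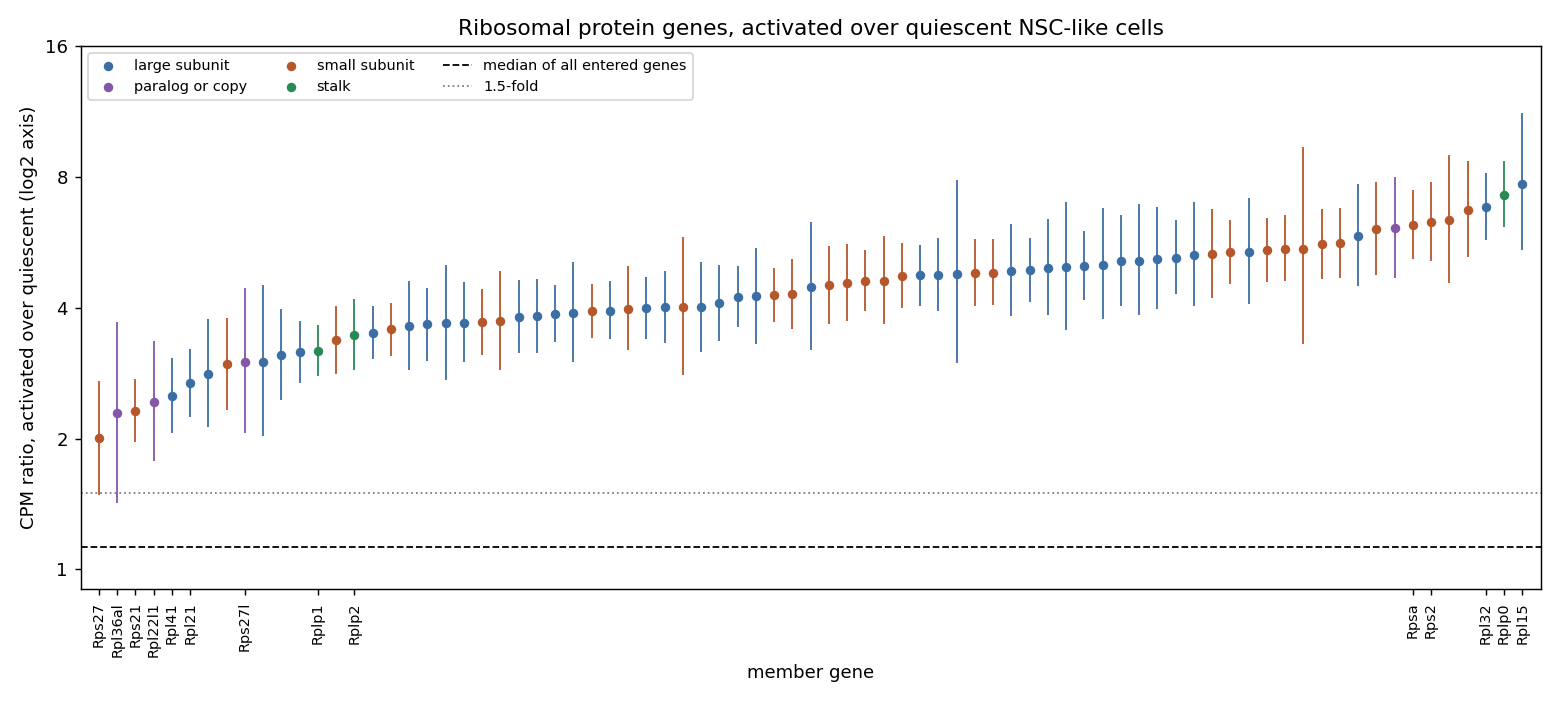
Ratio of CPM in activated over quiescent NSC-like cells (vertical axis, log scale) for the 79 members with at least 50 UMIs over both classes together, ordered by ratio along the horizontal axis (some labelled), with exact 95% counting intervals as bars. All points lie above the dotted line at 1.5-fold, from Rps27 at 2.01 to Rpl15 at 7.72, and the dashed line marks the median of all genes entered at 1.13.

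Glial cells were also ordered by how many of the 7 activation markers they showed, without the division into classes. The share was 2.53% in 469 cells with none and 2.55% in 273 cells with 1 marker. It was 6.83% in 44 cells with 2 markers and 14.3% in 22 cells with at least 3. The last step uses the marker count of the activated class and had the same cell median (12.8%) and median depth, so it is not a view of separate cells. Counted over all UMIs, the share thus stood at the same level for 0 and 1 marker and was higher with 2 and more. The median Malat1 share, a nuclear noncoding RNA, went from 14.5% to 4.0% along these steps, and the median depth from 3015 to 7093 UMIs. With markers counted in 1000 UMIs drawn from each cell, the shares were 2.87% in 632 cells, 4.49% in 123, 12.5% in 16 and 11.1% in 3 cells, so the share was also higher with 2 markers than with none where each cell was searched at the same depth. The equal level at 0 and 1 marker was not seen there. The part of Malat1 in this order was not tested.

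Astrocyte-like cells had a lower share than quiescent NSC-like cells, at 0.647-fold (0.634 to 0.660). Their single-cell quartiles were 1.11 and 2.47%, against 1.57 and 4.40%, so the classes overlapped over most of their range, and 83 of 115 quiescent cells lay above the astrocyte median of 1.76%. Of 84 members entered, 47 were at least 1.5-fold lower, beside a background of 15.7% of all genes, and 0 were higher (background 15.4%). The members' median ratio was 0.639 and that of all genes 0.960. Among members with at least 100 UMIs in each class, Rps19, needed for maturation of the small subunit, was lowest at 154 against 310 CPM (0.50-fold), then Rps21 at 0.51 and Rpl13a at 0.52. Rps2 at 0.85 (0.70 to 1.04), Rpl28 at 0.77 and Rpl21 at 0.76 were highest among the same members. The immediate early genes, which respond to dissociation, moved in the same comparison, with 5 of 7 entered lower by the same fold. Their ratio was 0.460 summed over these 7 and 0.458 over all 12 of the list. The median Malat1 share was 14.8% in astrocyte-like and 11.5% in quiescent cells. Among cells of like Malat1 share, leaving out bins with under 5 cells of a class here and below, the ratio of shares was 0.960 (0.903 to 1.02) under 2%, 0.819 at 4 to 8%, 0.671 at 8 to 16% and 0.698 above 16%. The part of the immediate early genes in the difference was not tested.

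Cycling progenitor-like and activated NSC-like cells had a pooled ratio of shares of 0.980 (0.966 to 0.995). Among cells of like Malat1 share the ratio was lower, at 0.858 (0.840 to 0.877) under 2% Malat1, 0.766 (0.744 to 0.789) at 2 to 4% and 0.816 (0.779 to 0.853) at 4 to 8%, where 6 to 34 cells of each class stood in a bin. The direction depended on the gate and on depth. With activated cells taken from 2 markers on, their share was lower and the ratio became 1.36, with 15 of 81 members at least 1.5-fold higher (background 25.6%). With the gate unchanged, the direction also turned among cells of 2000 to 8000 UMIs. With the gate at 3 markers, of 80 members entered, 1 was at least 1.5-fold higher, Rps27l at 644 against 422 CPM, beside a background of 23.2%, and 0 were lower (background 12.2%). Rpl41 at 1.49 (1.28 to 1.73) and Rpl14 at 1.21 were among the highest ratios among members with at least 100 UMIs in each class, and Rpl15, Rpl17 and Rpl38, of the large subunit, the lowest at 0.81 each.

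Non-cycling neuroblast-like cells (1214 cells, 10.3%) had 0.723-fold the share of activated NSC-like cells (0.714 to 0.733), and 206 of them lay above the activated median of 12.8%. This ratio became 1.005 with activated cells taken from 2 markers on. Of 84 members entered, 29 were at least 1.5-fold lower and 2 higher, beside backgrounds of 25.0% and 29.5%. The 2 higher were Rpl23a and Rpl24, each with 5 UMIs in the activated class. Rpl22l1, a paralog of Rpl22, had the lowest ratio of all members entered at 164 against 534 CPM (0.31-fold). Among those with at least 100 UMIs in each class, Rpl3, at the peptidyl transferase centre, and Rpl12, at the stalk base, were lowest at 0.42 each, followed by Rplp1 at 0.44. Rpl10, at 1934 against 1794 CPM and 1.08-fold (0.96 to 1.21), Rpl7 at 0.99 and Rpl21 at 0.98 did not differ beyond counting error. These values depended on the gate as well. With activated cells taken from 2 markers on, 5 of 84 members were at least 1.5-fold lower and 2 higher (backgrounds 22.2% and 29.1%). Rpl22l1 then stood at 0.38, Rplp1 at 0.58, Rpl3 at 0.60, Rpl12 at 0.63 and Rpl10 at 1.36. By Malat1 bin, the ratio of shares was 0.678 under 2%, 0.778 at 2 to 4% and 0.944 at 4 to 8%, with 6 to 9 activated cells in each.

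Set against quiescent NSC-like cells, the same neuroblast-like cells had a 3.10-fold share (3.04 to 3.16), 78 of 84 members were at least 1.5-fold higher (background 42.6%) and 0 lower (background 21.7%), with a median of 3.09 against 1.30 for all genes. By Malat1 bin, the ratio of shares was 2.42 under 2%, 2.91 at 4 to 8%, 2.03 at 8 to 16% and 0.517 (0.451 to 0.591) above 16%, where 18 and 30 cells remained. Among members with at least 100 UMIs in each class, Rps4x at 4.85 and Rplp0 at 4.75 were among the highest. Among the same members Rplp1, at 1470 against 1038 CPM, was lowest at 1.42 (1.27 to 1.58), followed by Rpl41 at 1.62 and Rps21 at 1.69. Of those with fewer UMIs, Rpl22l1 was lower still, at 0.75 with 776 against 75 UMIs. The comparisons with activated and with quiescent cells share the neuroblast-like cells.

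Among neuroblast-like cells, late cells had 0.908-fold the share of early cells (0.902 to 0.914), with quartiles of 7.49 and 11.8% against 9.07 and 12.4%, so most cells overlapped. By Malat1 bin the ratio was 0.982 (0.946 to 1.02) under 2%, 1.01 at 2 to 4%, 1.01 at 4 to 8%, where 506 of the 744 late cells lay, and 0.843 (0.816 to 0.871) at 8 to 16%, so the lower share of late cells was seen only in the last of these bins. Of 84 members, 1 was at least 1.5-fold lower (background 5.17%) and 1 higher (background 7.91%). The lower was Rpl22l1 at 132 against 235 CPM (0.56, 0.48 to 0.66), and the higher was Rpl24 at 52 against 33 CPM with 40 UMIs in early cells. Among members with at least 100 UMIs in each class, Rps27l, which is induced by p53, followed Rpl22l1 at 0.69 and Rpl27 at 0.72, whereas Rpl38 at 1.05, Rpl36 and Rpl7l1 at 1.04 each had the highest ratios. Cycling neuroblast-like cells had 0.892-fold the share of early cells (0.886 to 0.898). By Malat1 bin this was 0.897 under 2%, 0.831 at 2 to 4%, 0.794 at 4 to 8% and 0.394 (0.356 to 0.435) at 8 to 16%, where 5 and 18 cells remained. In all, 1 of 84 members was at least 1.5-fold higher (background 16.0%) and 0 lower (background 13.3%). This was again Rpl22l1, at 386 against 235 CPM and 1.64-fold (1.44 to 1.88). Rpl3 at 1.17 and Rps27l at 1.14 were next, and Rpl10 at 0.72, Rpl37 at 0.73 and Rpl7 at 0.74 were lowest. Cycling cells were not above non-cycling cells of the same type in the lung either, where the share was 0.911-fold in 159 cycling against 2020 non-cycling pericyte-like cells (0.904 to 0.917). By Malat1 bin this was 0.802 under 2%, 0.856 at 2 to 4%, 0.930 at 4 to 8% and 0.569 (0.530 to 0.609) at 8 to 16%, where 15 and 185 cells remained. There 1 of 84 members, Rpl10 at 0.66, was at least 1.5-fold lower (background 17.8%) and 0 were higher (background 14.0%), and Rpl41 was highest at 1.27 among members with at least 100 UMIs in each class.

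The other lists of the translation machinery were compared in the same cells. Summed over all genes of a list with no filter on UMIs, 18 translation factors and related TOP genes had 3.78-fold as many UMIs in activated as in quiescent NSC-like cells, relative to the total (3.56 to 4.01). The 31 ribosome biogenesis genes had 3.60-fold (3.23 to 4.03), the 80 mitochondrial ribosomal protein genes 1.53-fold (1.42 to 1.65) and the 25 mitochondrially encoded genes 0.750-fold (0.730 to 0.771). The summed ratios of both cytosolic lists were thus nearer to the 4.29 of the members than those of both mitochondrial lists. Gene by gene, 17 translation factors and 6 biogenesis genes had at least 50 UMIs over both classes together, a limit that genes with few UMIs pass mainly through the class where they are high, so no count of higher genes is read from these lists. The elongation factor subunits Eef1b2 and Eef1d stood at 5.71 (228 against 80 UMIs) and 1.84 (76 against 83 UMIs), and the nucleolar protein Npm1 at 4.19 (232 against 111 UMIs). Of 10 mitochondrially encoded genes entered, 3 were at least 1.5-fold lower, such as mt-Nd2 at 0.56, which is near the background of 25.2%. In neuroblast-like over activated cells, 21 of 28 biogenesis genes were at least 1.5-fold lower (background 25.0%) and 0 higher (background 29.5%), with a ratio of 0.555 summed over all 31. Rrs1 at 0.23, Gnl3 at 0.28 and Nop56 at 0.29, all acting in the nucleolus, were lowest, with 25 to 30 UMIs each in the activated class. Of 18 translation factors, 5 were lower, a share near the same background, and 0 higher, and their summed ratio was 0.936 (0.903 to 0.969). Tpt1 at 1.34 and Eef1d at 0.34 stood at the ends of this list.

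Among the remaining brain classes, oligodendrocyte precursor (OPC)-like cells had a pooled share of 7.51% but a cell median of 4.71%, with quartiles of 1.76 and 8.78%. Mature oligodendrocyte-like cells, which make myelin, had 3.19% with a cell median of 1.63%, and 51.2% of them lay under 2%. In both, deeper cells had the higher shares, with Spearman's rho between share and UMIs of 0.76 and 0.44 over the cells of each class. The share was 8.47% in microglia-like, 6.99% in endothelial-like, 5.25% in ependymal-like and 4.93% in fibroblast-like cells. Mural-like cells, the pericytes and smooth muscle of brain vessels, had 3.10%, close to quiescent NSC-like cells. Brain endothelial-like cells thus had 2.25-fold the share of mural-like cells (2.21 to 2.29), and 74 of 82 members were at least 1.5-fold higher (background 28.7%) and 0 lower (background 19.7%), with Rps20 at 3.70, Rps12 at 3.30 and Rps24 at 3.29 in front among members with at least 100 UMIs in each class. Below that limit, Rpl38 stood at 6.47 (5.16 to 8.21), with 1386 against 80 UMIs. By Malat1 bin, the ratio of shares was 1.53 at 4 to 8%, 1.39 at 8 to 16% and 1.10 above 16%. The summed immediate early genes stood at 2.15 (1.97 to 2.36) in the same comparison, and their part was not tested.

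In the lung the shares were higher and less spread, at 10.99% of the library (10.977 to 10.999%). Pericyte-like cells, the main class, had 9.45% (2462 cells) and the lowest share of the 9 classes. Endothelial-like cells followed with 10.4% (595 cells), Hhip-gated cells with 11.4% (501), Lyz2-gated cells with 11.9% (17), matrix fibroblast-like cells with 12.6% (73), smooth muscle-like cells with 12.8% (576) and neural-like cells, which carry Schwann and neural crest markers, with 12.9% (32). Epithelial-like cells had 17.5% (31) and T lineage-like cells 18.2% (102), with a rho between share and UMIs of 0.63 in the latter. By cell medians the order of these classes turned, at 17.2% in epithelial-like and 13.3% in T lineage-like cells, the latter beside neural-like cells at 13.1%. Of these, smooth muscle-like and neural-like cells did not differ beyond counting error. The quartiles of pericyte-like (6.67 and 10.8%) and smooth muscle-like cells (9.34 and 15.3%) overlapped.

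Over pericyte-like cells, the ratio of shares was 1.10 in endothelial-like, 1.20 in Hhip-gated, 1.33 in matrix fibroblast-like, 1.36 in smooth muscle-like, 1.86 in epithelial-like and 1.92 in T lineage-like cells. By Malat1 bin, T lineage-like cells had 2.13 under 2%, 1.59 at 2 to 4% and 1.41 at 4 to 8%, with 22, 32 and 45 cells, and epithelial-like cells 1.88 under 2% and 1.59 at 2 to 4%, with 10 and 18 cells. Hhip-gated cells had 1.07 under 2%, 1.21 at 2 to 4% and 1.35 at 4 to 8%. At 8 to 16% Malat1 the ratio was larger, at 2.43 in Hhip-gated, 2.13 in smooth muscle-like and 1.76 in endothelial-like cells, and above 16% it was 0.958 (0.884 to 1.04), 1.11 (0.980 to 1.252) and 1.58 (1.373 to 1.804). Of 84 members, 68 were at least 1.5-fold higher in T lineage-like cells (background 25.6%) and 72 in epithelial-like cells (background 18.1%), with 2 lower in each (backgrounds 39.5% and 44.3%). Smooth muscle-like cells had 14 higher and 1 lower (backgrounds 16.4% and 16.3%), endothelial-like cells 4 and 2 (19.9% and 24.5%) and Hhip-gated cells 5 and 1 (16.3% and 25.8%), which are shares near or under the background. Matrix fibroblast-like cells had 11 and 1 (15.9% and 33.8%), neural-like cells 17 and 1 (22.0% and 33.7%) and Lyz2-gated cells 15 and 3 (23.0% and 48.8%). These shares were also near or under the background. Where ratios were divided by the median of all genes entered, which was 0.83 for matrix fibroblast-like, 0.87 for Hhip-gated, 0.92 for neural-like and 0.69 for Lyz2-gated cells, the members at least 1.5-fold higher became 51, 19, 36 and 60, beside 23.4%, 21.1%, 25.7% and 35.5% of all genes under the same division. With this division, smooth muscle-like cells had 15 higher (16.6% of all genes), endothelial-like cells 4 (20.6%), T lineage-like cells 73 (32%) and epithelial-like cells 79 (29%).

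Rplp0, the stalk base, was among the 3 highest members in 4 of the lung comparisons, at 1537 CPM in pericyte-like, 2534 in Hhip-gated, 2659 in matrix fibroblast-like, 2673 in smooth muscle-like and 3203 in neural-like cells. Rpsa, a small subunit protein that is also known as laminin receptor precursor, had the highest ratio in T lineage-like cells at 3600 against 1177 CPM (3.06, 2.87 to 3.25). Rps6, the small subunit protein phosphorylated by S6 kinases, led in endothelial-like cells at 617 against 324 CPM (1.91), with Rps21 at 1.83 and Rps27 at 1.64. Rps12 at 2.55 and Rps19 at 2.52 were among the highest in epithelial-like cells. The 12 dissociation-linked immediate early genes also differed from pericyte-like cells in each of these classes. Their summed ratio was 3.89 in neural-like, 3.13 in Hhip-gated, 2.78 in matrix fibroblast-like, 2.75 in Lyz2-gated, 2.18 in smooth muscle-like, 1.45 in endothelial-like, 1.27 in epithelial-like and 0.649 in T lineage-like cells. Of the 12, 10 were at least 1.5-fold higher in neural-like and in Hhip-gated cells (backgrounds 22.0% and 16.3%), and 9 were lower in T lineage-like cells (background 39.5%). Their part in the member ratios was not tested.

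Vascular classes were found in both libraries, where tissue and library cannot be told apart. Endothelial-like cells had 10.4% in lung and 6.99% in brain (ratio 1.49, 1.480 to 1.502), and lung pericyte-like cells had 3.05-fold the share of brain mural-like cells (2.99 to 3.10). The mural ratio was 2.05 among cells under 8% Malat1, and by Malat1 bin it was 1.91 at 4 to 8%, 1.23 at 8 to 16% and 0.499 (0.464 to 0.536) above 16%, below 1. The summed immediate early genes were higher in lung as well, 1.93-fold (1.857 to 2.002) in endothelial-like cells and 2.86-fold (2.63 to 3.11) in pericyte-like over mural-like cells, and their part was not tested. In the endothelial comparison 45 of 84 members were at least 1.5-fold higher in lung and 4 lower (backgrounds 20.6% and 17.0%), and in the mural comparison 77 and 1 (backgrounds 28.2% and 24.4%). The ratio was above 1 in both for 77 members and below 1 in both for 2, Rpl26 and the low-count Rpl23a. Rpl26, a large subunit protein that also binds the p53 message, stood at 583 against 1261 CPM in endothelial-like (0.46, 0.43 to 0.49) and 452 against 535 CPM in pericyte-like and mural-like cells (0.84). Rpl38, a large subunit protein with a known role in the translation of Hox messages, was lower in lung endothelial-like cells, at 667 against 1153 CPM (0.58), yet had a ratio of 2.97 in the mural comparison. In brain, endothelial-like cells had the highest level of Rpl38 of the classes, above activated NSC-like cells with 1026 CPM and mural-like cells with 178 CPM. Rps27 at 2.78, Rpl39 at 2.41 and Rpl36a at 2.28 were highest in the endothelial comparison.

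The make-up of the module was also compared as each gene's part of the member UMIs, which removes the overall level. Large subunit members held 1.28-fold as many UMIs as small subunit members in quiescent NSC-like (1.24 to 1.33), 1.19-fold in activated NSC-like (1.16 to 1.22), 1.15-fold in late neuroblast-like (1.14 to 1.16) and 1.05-fold in lung endothelial-like cells (1.05 to 1.06). Brain mural-like cells had the highest value, 1.32 (1.28 to 1.37). These differences, although past counting error, were small beside the differences in the share. The 3 stalk genes made 6.16% of member UMIs in quiescent NSC-like, 6.06% in activated NSC-like, 4.83% in early and 4.73% in late neuroblast-like cells, 6.83% in ependymal-like and 7.90% in Lyz2-gated cells. Rplp1 made 3.11% in quiescent NSC-like and 1.42% in late neuroblast-like cells, while Rplp0 was at 1.45 and 2.22% in the same classes. Rpl26 separated the libraries, with 1.38 to 1.83% in the brain classes and 0.176 to 0.782% in the lung classes, and these ranges did not overlap. Rpl39, of the exit tunnel, made 0.419 to 0.596% in the brain classes and 0.690 to 1.21% in the lung classes, also without overlap.

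**Figure D3:**
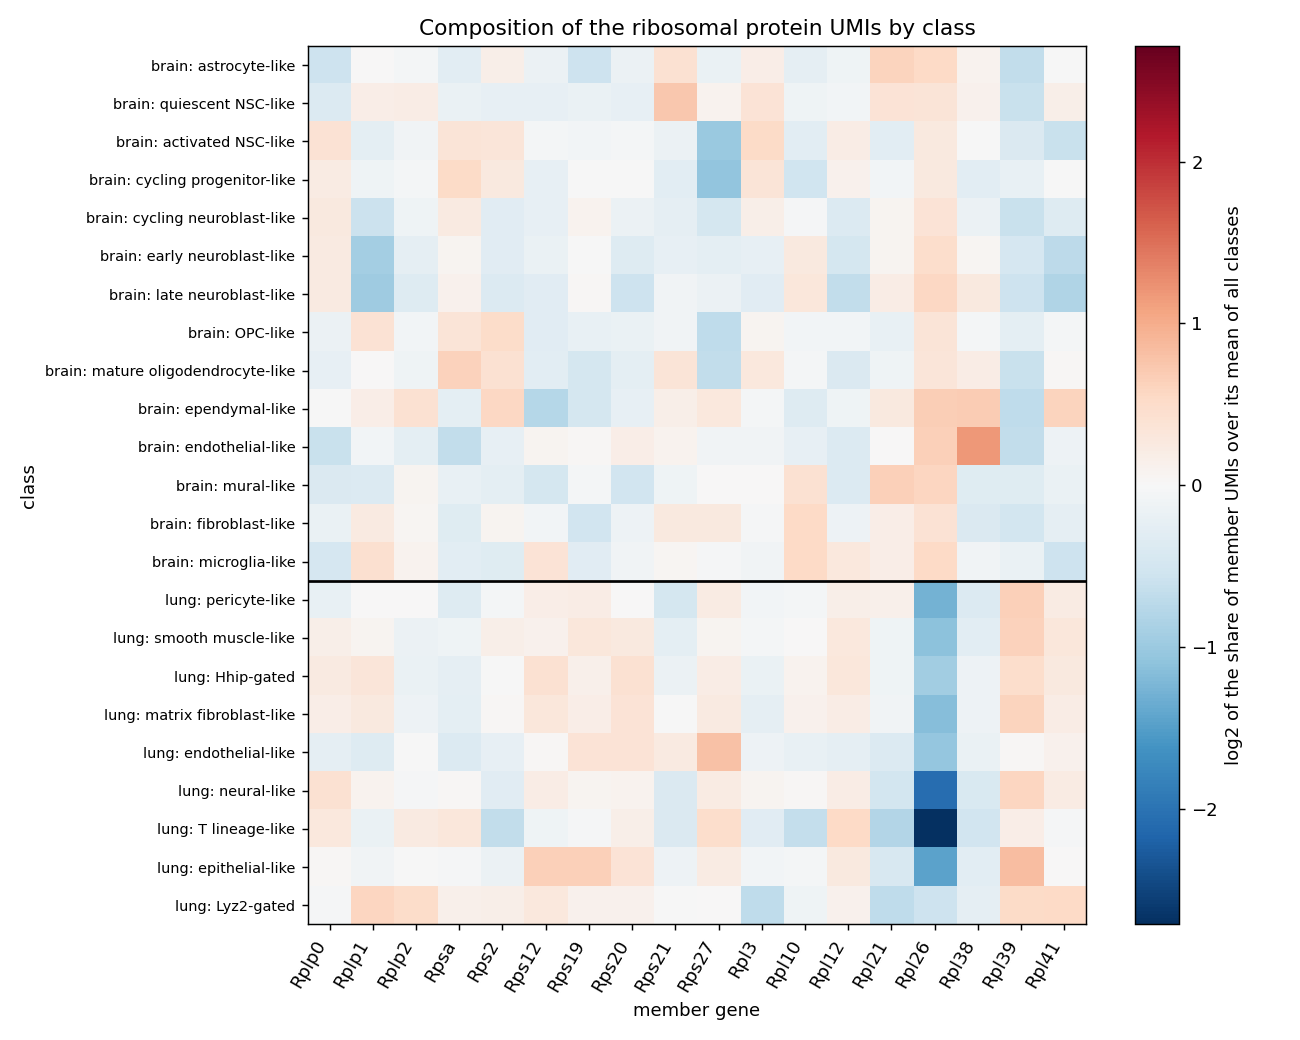
Part of the member UMIs held by each of 18 members (horizontal axis) in 23 classes (vertical axis), coloured as the log2 of the part over its mean across the classes. Rpl26 is below its mean in the 9 lung classes and above it in the 14 brain classes, and Rplp1 is lowest in early and late neuroblast-like cells, at -0.93 and -0.96.

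The part that a paralog held of its pair differed between classes. Rpl22l1 made 45.5% of the UMIs of the Rpl22 pair in quiescent NSC-like cells (37.7 to 53.4%), 29.1% in activated NSC-like, 28.2% in cycling neuroblast-like, 15.3% in early and 10.7% in late neuroblast-like cells (9.68 to 11.8%). Rpl22 itself stood at 263 CPM in quiescent NSC-like, 1302 in activated NSC-like and 1099 in late neuroblast-like cells, and Rpl22l1 at 219, 534 and 132 CPM. From the quiescent to the activated class both genes were higher, and from there to the late neuroblast-like class Rpl22l1 was lower while Rpl22 stayed near its level. In lung it made 34.6% in pericyte-like and 25.9% in endothelial-like cells. Rps27l made 56.6% of the Rps27 pair in cycling progenitor-like cells (52.1 to 61.1%), 44.4% in activated NSC-like, 30.3% in early and 23.3% in late neuroblast-like cells, and 43.4% in cycling against 33.6% in non-cycling lung pericyte-like cells. UMIs mark 3′ ends, so these counts need no division by length.

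**Figure D4:**
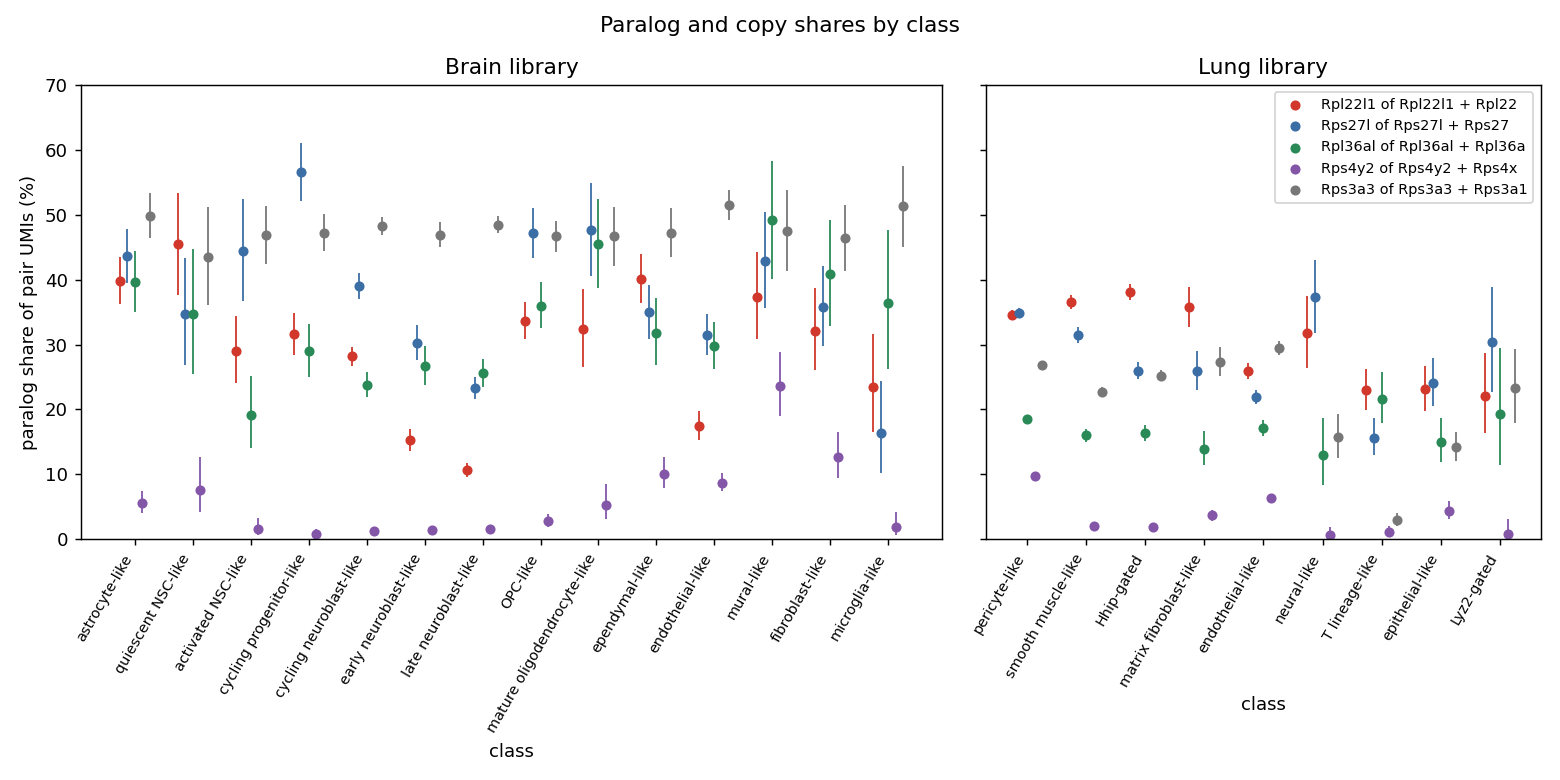
Share of the UMIs of a paralog and parent pair that fell on the paralog (%, vertical axis) by class (horizontal axis), with exact 95% counting intervals as bars. Rpl22l1 runs from 45.5% in quiescent NSC-like to 10.7% in late neuroblast-like cells, and Rps4y2 is highest in brain mural-like cells at 23.7%.

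Rps4y2, listed in RefSeq as an older symbol of Rps4l, a copy of the X-linked Rps4x, had its highest levels in mural-like and pericyte-like cells. It stood at 160 CPM in brain mural-like (23.7% of the pair), 125 in brain endothelial-like, 230 in lung pericyte-like and 137 in lung endothelial-like cells. It was at 38 CPM in quiescent NSC-like, 41 in activated NSC-like and 35 in late neuroblast-like cells, and at 60 in lung smooth muscle-like (0.26-fold pericyte-like, 0.23 to 0.30) and 52 in Hhip-gated cells (0.22-fold). Brain fibroblast-like cells with 127 CPM, ependymal-like cells with 96 CPM, and lung matrix fibroblast-like and epithelial-like cells with 131 and 141 CPM lay between these levels, so it was not limited to vessels. The muscle and testis paralogs Rpl3l and Rpl39l had 40 and 24 UMIs over both libraries. Rpl36al made 28.6% of its pair in brain and 17.1% in lung, and Rpl7l1 8.55 and 9.33%. Rps3a3, annotated as a processed pseudogene, took 43.5 to 51.5% of the UMIs of its pair with Rps3a1 in the brain classes but 24.2% in the lung library and 2.93% in T lineage-like cells (2.05 to 4.05%). Reads of such near-identical copies may have been split between them by the counting, so the levels of Rps3a1 and Rps3a3 are uncertain.

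The member share went with the share of Malat1, a nuclear RNA that is high where little cytoplasmic RNA was captured. Over single cells, Spearman's rho between them was -0.71 in 4151 brain cells and -0.52 in 5608 lung cells, where both are parts of the same total of each cell. Median Malat1 was 14.8% in astrocyte-like, 11.5% in quiescent NSC-like, 12.8% in mural-like, 3.79% in activated NSC-like and 1.64% in cycling progenitor-like cells. Activated cells had 3.56-fold the share of quiescent cells among those under 2% Malat1 (6 and 14 cells) and 3.08-fold at 4 to 8% (9 and 13 cells), so the difference was seen within both bins. For lung pericyte-like over brain mural-like cells, the ratio in each bin given above was below the pooled 3.05. Lung over brain endothelial-like cells gave 1.22 to 1.56 up to 16% and 0.718 above, where 9 and 6 cells remained.

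**Figure D5:**
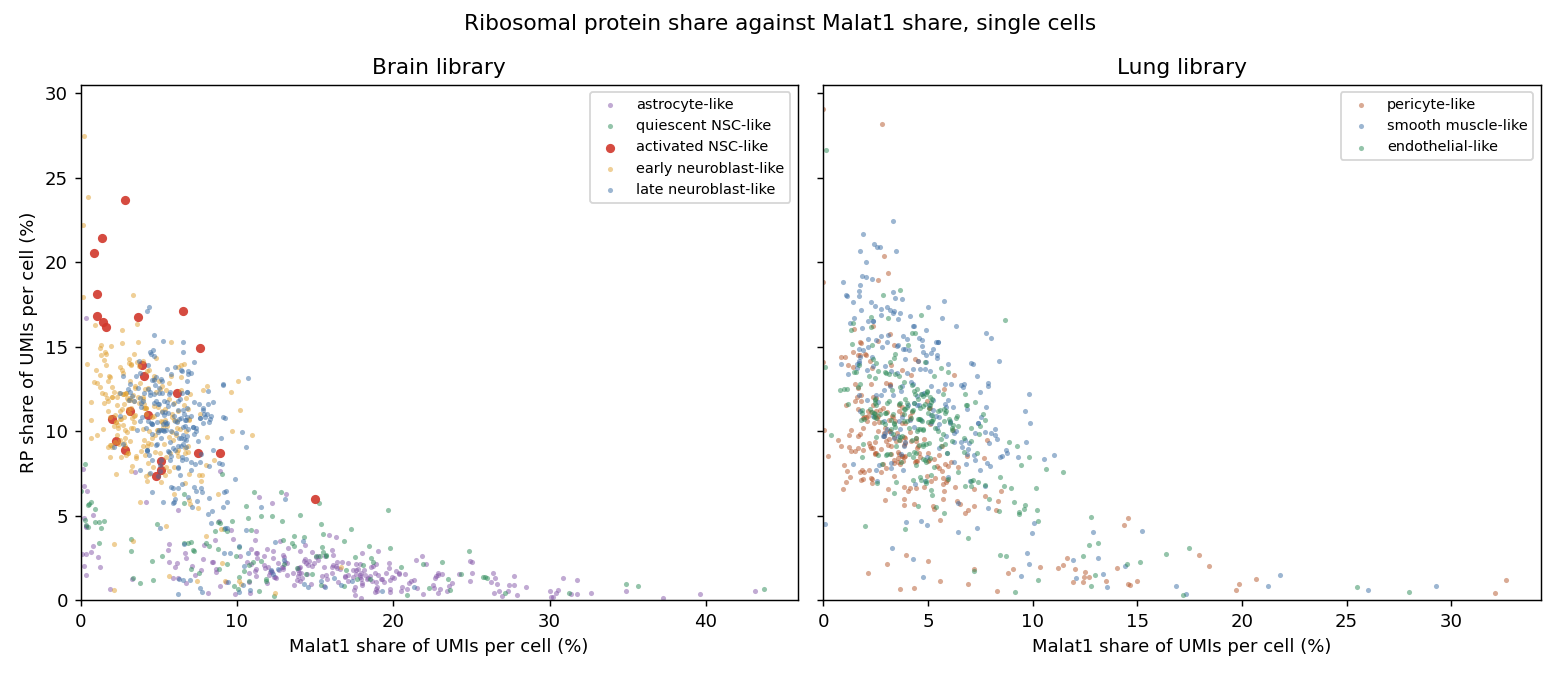
Ribosomal protein share (%, vertical axis) against Malat1 share (%, horizontal axis) of single cells of 5 brain and 3 lung classes, with up to 250 cells per class drawn at random and coloured by class. Cells with more Malat1 have a lower share (Spearman's rho over all cells -0.71 in brain and -0.52 in lung), and nearly all activated NSC-like cells lie above the quiescent NSC-like cells.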

How the data were processed

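Nestin-GFP+ cells of brain and lung were profiled as 1 single-cell RNA library each. The authors deposited raw UMI counts per gene and barcode, with no normalization. The submitters' processing notes name bcl2fastq 2.19.1.403, UMI-tools 1.0.0, STAR 2.7.1a, featureCounts 1.6.4 and mm10. The annotation version, the treatment of reads that map to several places and the barcode rule are not given in the sources used here.

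Barcodes with over 200 and under 4000 genes and under 40% mitochondrial counts passed, following the study's methods. This left 4151 of 4640 brain and 5608 of 5981 lung barcodes. Barcodes over the gene limit (418 and 307) had member shares of 8.58 and 12.2%. Doublets were kept, and Scrublet called 44 brain (1.06%) and 72 lung cells (1.28%).

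Cells were classed by marker detection, and UMIs were summed per class. Shares carry Clopper-Pearson and ratios conditional binomial 95% intervals for counting error only. With 1 library per group no test was made. Genes with at least 50 UMIs summed over the 2 classes compared were entered and called at 1.5-fold, and the share of all genes past that fold is the background. Named were the 10 top members, the stalk genes, Rpsa, the paralogs, the 3 highest and 3 lowest members of each comparison (at least 100 UMIs in each class) and the 3 highest and lowest genes of other lists. Members called singly outside this rule (such as Rpl23a and Rpl24) were named after their values were seen. A few genes that the rule names are not reported here. The members and lists were chosen with earlier results of these data known, and gate thresholds were set after seeing the data. The ratio calculation was tested on simulated data. Python 3.11.15, numpy 2.4.6, scipy 1.17.1, pandas 2.3.3, scanpy 1.11.5 and matplotlib 3.10.9 were used.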

Additional observations from a re-analysis of the deposited data

How the results depend on the processing

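The ratio of activated over quiescent NSC-like cells was 4.97 with 1 more marker for each class, 3.55 without the 20 most abundant other genes, 3.94 without Malat1, 3.09 with activated cells from 2 markers, 3.78 with gates on 1000 UMIs, 3.46 for cells of 2000 to 8000 UMIs and 3.80 under 8% Malat1. In the same order, neuroblast-like over activated gave 0.637, 0.749, 0.735, 1.005 (reversed), 0.836 and 0.875, with no such shift under 8% Malat1. Cycling over activated gave 0.853, 0.947, 0.962, 1.36 (reversed), 0.859, 1.03 (reversed) and 0.966, 0.949 as a mean over cells and 0.909 without the gene limit. Astrocyte-like over quiescent gave 0.671 without the 20 genes or without Malat1, 0.687 with gates on 1000 UMIs, 0.617 for 2000 to 8000 UMIs, 0.912 under 8% Malat1 and 0.630 under 10% mitochondrial counts. Late over early neuroblast-like gave 0.923 without the 20 genes, 0.928 without Malat1, 0.865 as a mean over cells, 0.930 for 2000 to 8000 UMIs, 0.946 under 8% Malat1 and 0.923 under 10% mitochondrial counts. The endothelial ratio of lung over brain was 1.4 without the 20 genes, 1.56 as a mean, 1.51 without the gene limit, 1.45 for 2000 to 8000 UMIs and 1.45 under 8% Malat1. The mural ratio was 2.7 without the 20 genes, 2.76 without Malat1, 3.10 without Scrublet calls, 3.13 with gates on 1000 UMIs, 2.88 as a mean, 3.11 without mitochondrial genes, 2.98 for 2000 to 8000 UMIs, 2.05 under 8% Malat1 and 3.13 under 10% mitochondrial counts. Smooth muscle-like over pericyte-like gave 1.36 with 1 more marker, without Scrublet calls or with core members only, 1.37 without Malat1 or with gates on 1000 UMIs, 1.39 as a mean, 1.35 without mitochondrial genes or without the gene limit, 1.30 for 2000 to 8000 UMIs and 1.38 under 8% Malat1. The quiescent share was 4.59% without the 20 genes, 3.77% without Malat1, 3.25% with core members only, 3.05% as a mean, 3.54% without mitochondrial genes, 3.48% for 2000 to 8000 UMIs, 3.87% under 8% Malat1 and 3.44% under 10% mitochondrial counts.

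The activated class of 24 cells held 9 cells with gates on 1000 UMIs, 15 with 1 more marker and 72 from 2 markers. The settings on activated cells from 2 markers and on Malat1, and the list sums without a UMI limit, were chosen after seeing the data. At a fold of 5 to 4 in place of 1.5, the members called rose from 47 to 74 in astrocyte-like over quiescent (30.8% of all genes at that fold), from 29 to 52 in neuroblast-like over activated (35%), and in the lung from 14 to 64 in smooth muscle-like (25.7%), 4 to 13 in endothelial-like (29.6%), 5 to 25 in Hhip-gated (22.7%), 11 to 49 in matrix fibroblast-like (23.2%), 17 to 58 in neural-like (31.2%) and 15 to 32 in Lyz2-gated cells (28.8%). Of 286 other class shares, 204 moved beyond their counting interval, of 143 other ratios 86, of 44 other subunit ratios 8 and of 228 other paralog shares 3. Of the 143 ratios 0 reversed, and only these were checked for a reversal. No paired analysis was possible because each group holds 1 library. The intervals leave out the spread between animals, and classes under 60 cells rest on few cells.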
